A study of Homo sapiens with 20 samples.

Results

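In NCI-H526 cells, 1374 stretches of the genome held POU2F3 regions in rows of 5 or more. These stretches, called chains here, were defined by the regions of the POU2F3 antibody list of DMSO-treated cells: regions more than 1 kb from every protein-coding transcription start site (TSS) on chromosomes 1 to 22 and X were joined over gaps of 12500 bases or less, and rows of 5 or more regions were kept. The chains held 8491 of the 75267 distal regions of that list (11.3%), of 89850 regions on these chromosomes and 562708 in all 20 peak lists of the study. Because the DMSO list chose the members, their number, density and strength in that list are given as a description only. Whether there are more such rows than random placement would give was not tested.

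The study mapped transcription factor binding by ChIP-seq in cells treated with AU-15330 or with DMSO. AU-15330 is a PROTAC, a small molecule that has the mSWI/SNF ATPases SMARCA2 and SMARCA4 degraded, and it was given at 1 µM for 4 to 6 h by the sample labels, which state 6 h only for the HA libraries of NCI-H1048 cells. NCI-H526 and NCI-H1048 are established lines of the tuft cell-like POU2F3 subtype of small cell lung cancer (SCLC-P), and MM1.S and NCI-H929 are multiple myeloma lines. In NCI-H526 cells the 3 pairs of lists are AU-15330 and DMSO with the POU2F3 antibody, with an HA antibody for HA-POU2F3, and with an HA antibody for HA-POU2AF2. In NCI-H1048 cells the pairs are the POU2F3 antibody, HA-POU2F3, and an HA pair for which the labels name no tagged protein. The myeloma lines were profiled for POU2AF1 and IRF4 under both treatments. By the study's methods the HA-tagged proteins are dTAG fusions delivered by lentivirus into Cas9-expressing cells with the endogenous gene knocked out, so an HA list and an antibody list differ in cells as well as in antibody. With 1 library per condition there was no replicate check, and differences between AU-15330 and DMSO were not tested.

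POU2F3, a transcription factor with a POU DNA-binding domain, directs the tuft cell program, the gene program of rare chemosensory epithelial cells. It binds the octamer sequence, and its coactivators POU2AF2 and POU2AF3 join it on DNA. The mSWI/SNF complex moves nucleosomes and keeps enhancers accessible. Rows of closely spaced factor-bound sites often mark the enhancer clusters of genes that define a cell type, and such rows are usually found by joining neighbouring sites as was done here.

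The octamer core TTTGCAT lay within 100 bases of the summit, on either strand, at 4288 of 8491 chain regions (50.5%, exact 95% interval 49.4 to 51.6) and at 35690 of 66776 other distal regions (53.4%, 53.1 to 53.8). Over all distal regions the share was 53.1%. In windows of the same length 2 kb away, the core was present at 6.05% of chain regions and 5.76% of the others. All but 28 chains had at least 1 member with the core, and 36 chains had it at every member. Contexts of the core at members of the chains described here follow, on GRCh38 and read 5′ to 3′ on the strand stated, with the core in capitals. They are shown because they lie at members that kept POU2F3 with AU-15330 and carried both HA proteins, in chains over tuft cell genes and in the chain with the most regions.
SOX9 chain, chr17:72152729-72152769, minus strand: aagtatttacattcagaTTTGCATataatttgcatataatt
SOX9 chain, chr17:72165392-72165432, minus strand: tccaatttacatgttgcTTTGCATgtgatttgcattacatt
SOX9 chain, chr17:72182430-72182470, plus strand: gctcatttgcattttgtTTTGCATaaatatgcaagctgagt
POU2AF2 chain, chr11:111273915-111273955, minus strand: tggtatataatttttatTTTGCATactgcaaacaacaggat
ASCL2 chain, chr11:2261500-2261540, plus strand: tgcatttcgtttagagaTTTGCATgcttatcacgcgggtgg
NBAS chain, chr2:15197918-15197958, minus strand: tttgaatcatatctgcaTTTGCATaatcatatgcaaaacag

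The chains were mostly short. Of the 1374 chains, 671 had exactly 5 regions (48.8%), 66 had 10 or more, and the longest row had 35. Their length ranged from 5.76 to 229 kb with a median of 29.0 kb, and neighbouring members were 5.50 kb apart at the median. Just below the threshold stood 1504 chains of 4 regions. Their 6016 regions had a lost share of 80.3% and an HA-POU2AF2 share of 28.0%, and the 3355 regions in chains of exactly 5 had 78.7% and 29.1%, so the threshold cut through a gradual series. By place, 620 chains overlapped no protein-coding gene, 560 lay inside 1 gene, and 194 held a gene boundary. The TSS nearest to the middle of a chain was 94.4 kb away at the median (quartiles 38.3 and 233 kb), and 1082 different genes were nearest to a chain, so the nearest gene names a chain here and says nothing about its target.

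Chromosome 11, where POU2F3, POU2AF2 and POU2AF3 lie, had the highest share of its distal regions in chains, 18.8%, followed by chromosome 13 with 15.9%. Chromosome 22 (2.33%), chromosome 19 (3.39%) and the X chromosome (3.64%) had the lowest. Chromosomes 11 and 13 also had a raised tag background at regions that stood alone, 1.09 and 1.19 times the median of all regions of the list, and the other chromosomes lay between 0.770 and 0.992. The part of tag density in this pattern was not tested.

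A region of a DMSO list counted as retained if any region of the matching AU-15330 list shared 1 base or more with it, and as lost if none did. With AU-15330, 6569 of the 8491 chain regions were lost (77.4%, exact 95% interval 76.5 to 78.3, counting error only), against 56895 of the 66776 other distal regions (85.2%, 84.9 to 85.5). Over all distal regions the lost share was 84.3%. Per chain, the lost share had a median of 80% with quartiles of 66.7 and 100%. In 363 chains (26.4%) every region was lost, in 134 (9.75%) at least 50% of the regions were retained, and in only 1 was none lost.

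Counting regions near a TSS too, the lists hold 2056 POU2F3 antibody regions inside the chain spans with AU-15330, against 8631 with DMSO. The count was lower with AU-15330 in 1372 chains and equal in 2. With AU-15330, 1037 chains still held at least 1 region and 45 held 5 or more. When the AU-15330 list was chained by the same rule it gave 21 chains, of which 20 overlapped one of the 1374. The AU-15330 library was shallower, with a background pileup 0.502 times that of the DMSO library. The same number of regions with the highest folds was also taken from both lists, which removes most weak DMSO regions. Of the 1627 chain regions left, 34.2% were lost, and no such share was computed for regions elsewhere.

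The strongest member of a chain was left more often than the weakest, and strong regions outside the chains were also left more often than weak ones. The region with the highest fold in its chain was retained in 804 chains (58.5%), and the region with the lowest fold in 50 (3.64%). These fold values are part of the list that chose the members, and they rank regions within that list. Of the other distal regions 50.6% were lost in the highest quintile of fold and 98.1% in the lowest, against 33% and 94% of chain regions. The level of a region is its summit pileup in tags divided by the background pileup of its own library. At the 1922 retained chain regions the level with AU-15330 was 0.626 times that with DMSO at the median (quartiles 0.492 and 0.786) and lower at 89.2% of them. For the 9881 retained regions elsewhere the median was 0.600, and 89.6% were lower. The members of chains that kept POU2F3 were thus lower with AU-15330 about as often as retained regions elsewhere.

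HA-POU2AF2, the coactivator, was present with DMSO at 2565 chain regions (30.2%, exact 95% interval 29.2 to 31.2) and at 16652 other distal regions (24.9%, 24.6 to 25.3), with 25.5% over all distal regions. HA-POU2F3 was present at 3460 chain regions (40.7%) and 24092 others (36.1%), with 36.6% over all. The load differed widely between chains: 214 chains had no member with HA-POU2AF2, 268 had it at 50% or more of their members, and 3 had it at all of them. In 937 chains (68.2%) the highest-fold member carried HA-POU2AF2, against 83 (6.04%) for the lowest-fold member. Like retention, HA-POU2AF2 was thus found more often on the strongest member of a chain than on the weakest. Outside the chains it was present at 66.6% of regions in the highest quintile of fold and 4.99% in the lowest.

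Loss followed this load. Chain regions with HA-POU2AF2 were lost in 46.8% of cases (exact 95% interval 44.8 to 48.7) and those without it in 90.6% (89.8 to 91.3). Of the 1729 chain regions with both HA proteins 34% were lost, and of the 4195 with neither 94.2%. Among the other distal regions the same classes gave 59.6% with HA-POU2AF2 and 93.7% without it, and 47.4% with both and 96.3% with neither. Counted per chain, the 268 chains with HA-POU2AF2 at 50% or more of their members lost 62.8% of their regions (60.5 to 65.2), the 892 with a lower share lost 78.8% (77.7 to 79.8), and the 214 with none lost 91.2% (89.4 to 92.7). The median summit pileup of their DMSO regions was 49, 34 and 27 tags in the same order, so the load moved together with strength, and the part of strength in this order was not tested.

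**Figure D1:**
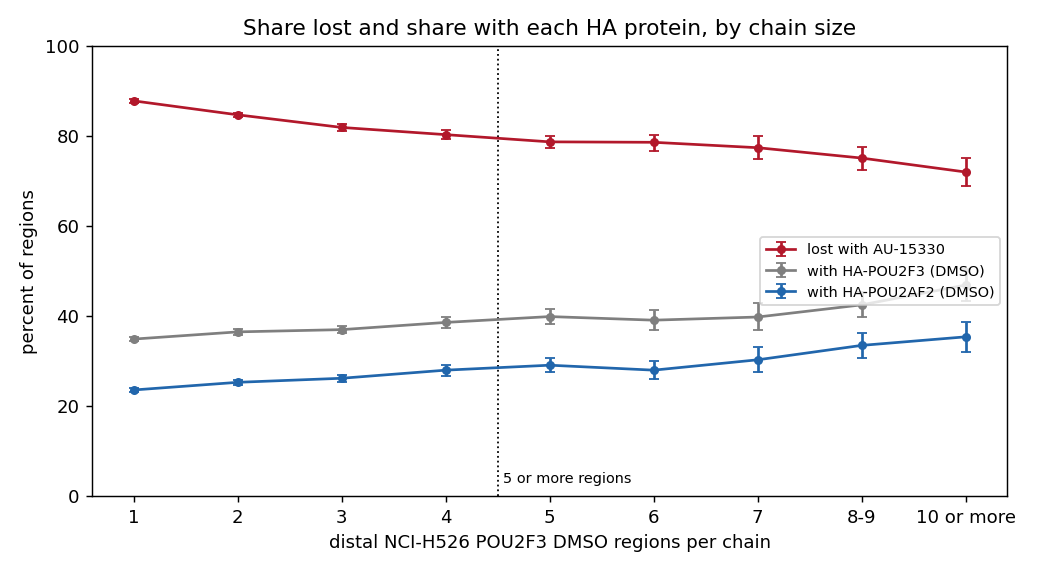
Percent of distal POU2F3 DMSO regions of NCI-H526 cells that were lost with AU-15330, that carried HA-POU2F3 and that carried HA-POU2AF2, by the number of regions in the chain; bars are exact 95% intervals and the dotted line marks the threshold of 5. The lost share was 72.0% in chains of 10 or more and 87.8% for regions that stood alone, and the HA-POU2AF2 share was 35.4% and 23.6%.

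Whether the chains differ from other distal regions depended on how strength was matched. Within quintiles of the authors' fold enrichment the chain regions had a lower lost share in all 5, by 4.19 to 17.6 percentage points, and a higher HA-POU2AF2 share in all 5, by 4.41 to 10.5 points. The fold divides the summit pileup by a local background. Whether neighbouring members entered that background was not tested. The median pileup of chain regions was 34 tags at a fold of 4.17, and that of the others 26 tags at a fold of 4.37. Within quintiles of the summit pileup, chain regions differed from the others by -0.699 to 2.03 points in the lost share, and their HA-POU2AF2 share was lower in all 5 quintiles, with differences of -0.789 to -7.32 points. In the quintile with the highest pileup 42.1% of 2673 chain regions and 41.7% of 12077 others were lost, and 64.6% and 72.0% carried HA-POU2AF2. At matched pileup the chain regions also held the octamer core less often, 64.1% against 71.2% in the highest quintile and 28.2% against 35.1% in the lowest.

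**Figure D2:**
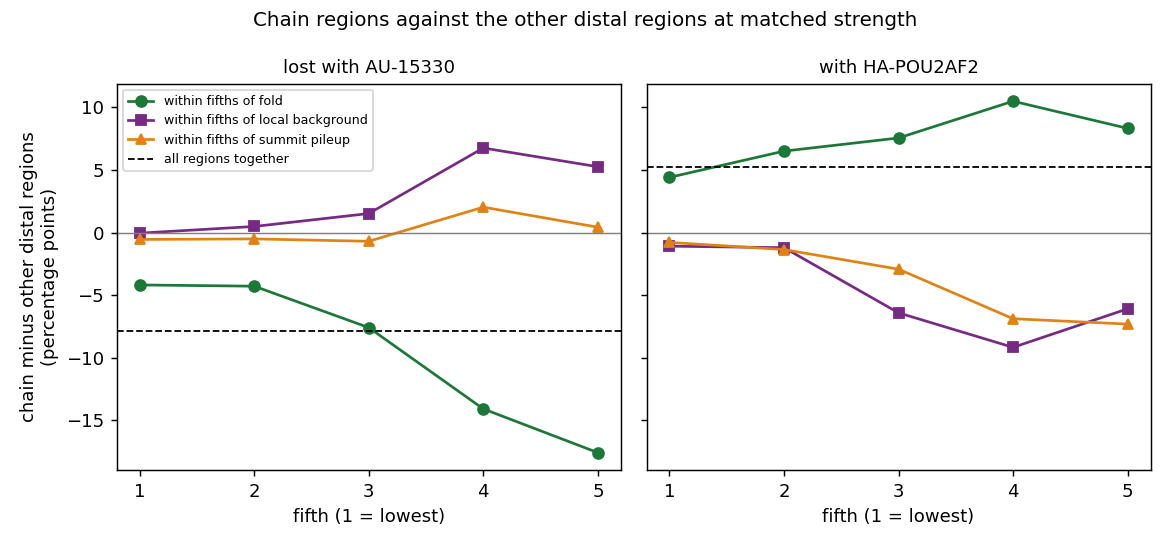
Chain regions minus other distal regions, in percentage points, for the share lost with AU-15330 (left) and the share with HA-POU2AF2 (right), within quintiles of fold, of recovered local background and of recovered summit pileup; dashed lines give the difference over all regions. The dashed lines stand at -7.84 and 5.27 points, and the lines for the pileup stay near 0 on the left and below 0 on the right.

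The HA lists were not used to choose the chains and gave a further look at loss in them. Inside the spans, 3116 of 3842 distal HA-POU2F3 DMSO regions were lost with AU-15330 (81.1%, exact 95% interval 79.8 to 82.3), against 90.9% of 41390 elsewhere and 90% over all. Of the HA-POU2AF2 DMSO regions 2654 of 2743 were lost inside the spans (96.8%, 96.0 to 97.4), against 99% of 23483 elsewhere and 98.8% over all. At least 1 HA-POU2AF2 region lay in 118 chains with AU-15330 (8.59%) and in 1183 with DMSO (86.1%). The HA-POU2F3 libraries had nearly the same background pileup, with a ratio of 1.08, while the HA-POU2AF2 library of AU-15330-treated cells had 0.346 times that of its DMSO partner. With tags and local background scaled to the AU-15330 library and no other change, 60.8% of the HA-POU2AF2 regions in the spans and 42.8% of those elsewhere would reach the smallest −log10 p of the AU-15330 list. The same values were 86% and 82.6% for the POU2F3 antibody in NCI-H526 cells, and 99.9% and 99.3% for HA-POU2F3. The part of depth in the lost shares was not tested. With lists of the same number of strongest regions, the lost shares inside the spans were 65.9% of 1185 HA-POU2F3 regions and 87.8% of 296 HA-POU2AF2 regions. No such shares were computed for regions elsewhere.

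Matched on the summit pileup of the same DMSO list, HA-POU2F3 regions in the spans differed from those elsewhere by -7.41 points in the highest quintile (61.4% and 68.8% lost) and by -4.24 to 0.575 points in the other 4. For HA-POU2AF2 the differences ran from -3.99 points in the highest quintile (92.2% and 96.2% lost) to 0.186. Chained by the same rule, the HA-POU2F3 lists gave 10 chains with AU-15330 and 214 with DMSO, and the HA-POU2AF2 lists 1 and 51. The retained HA-POU2F3 regions in the spans, 726 in number, had a median level ratio of 0.568, and the 89 retained HA-POU2AF2 regions 0.745.

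NCI-H1048, the other SCLC-P line, shared few of the members. Its POU2F3 antibody DMSO list had a region at 1717 chain regions (20.2%, exact 95% interval 19.4 to 21.1) and at 13237 other distal regions (19.8%, 19.5 to 20.1), with 19.9% over all. At least 1 region of that list lay in 981 chains, and 5 or more in 46. Of the 71 chains that this list gave by the same rule, 34 overlapped one of NCI-H526. The chain regions that NCI-H1048 also had were lost in NCI-H526 in 48.6% of cases, and the other chain regions in 84.7%. Among the other distal regions the same classes gave 64.4% and 90.3%. The shared chain regions were also stronger, with a median fold of 6.35 against 3.91, and the part of strength was not tested.

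In NCI-H1048 cells the antibody and HA lists gave different counts in the spans. With the POU2F3 antibody the spans held 2036 regions with AU-15330 and 2037 with DMSO, with fewer in 444 chains and more in 411. The whole lists held 51406 regions with AU-15330 and 38034 with DMSO, and 5.19% and 6.61% of their distal regions lay in the spans. Of its distal DMSO regions in the spans 50.8% were lost (exact 95% interval 48.6 to 53.1), against 67.9% of those elsewhere and 66.8% over all, and in the quintile of highest pileup 20.8% and 33.6%. HA-POU2F3 had 246 and 1315 regions in the spans and lost 89.9% there, against 94.9% elsewhere and 94.5% over all. The HA pair of unnamed tag had 88 and 1208 regions and lost 95.7%, against 98.4% elsewhere and 98.2% over all. The POU2F3 antibody library of AU-15330-treated NCI-H1048 cells had 1.34 times the background pileup of its DMSO partner, and the HA-POU2F3 library 1.01 times.

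**Figure D3:**
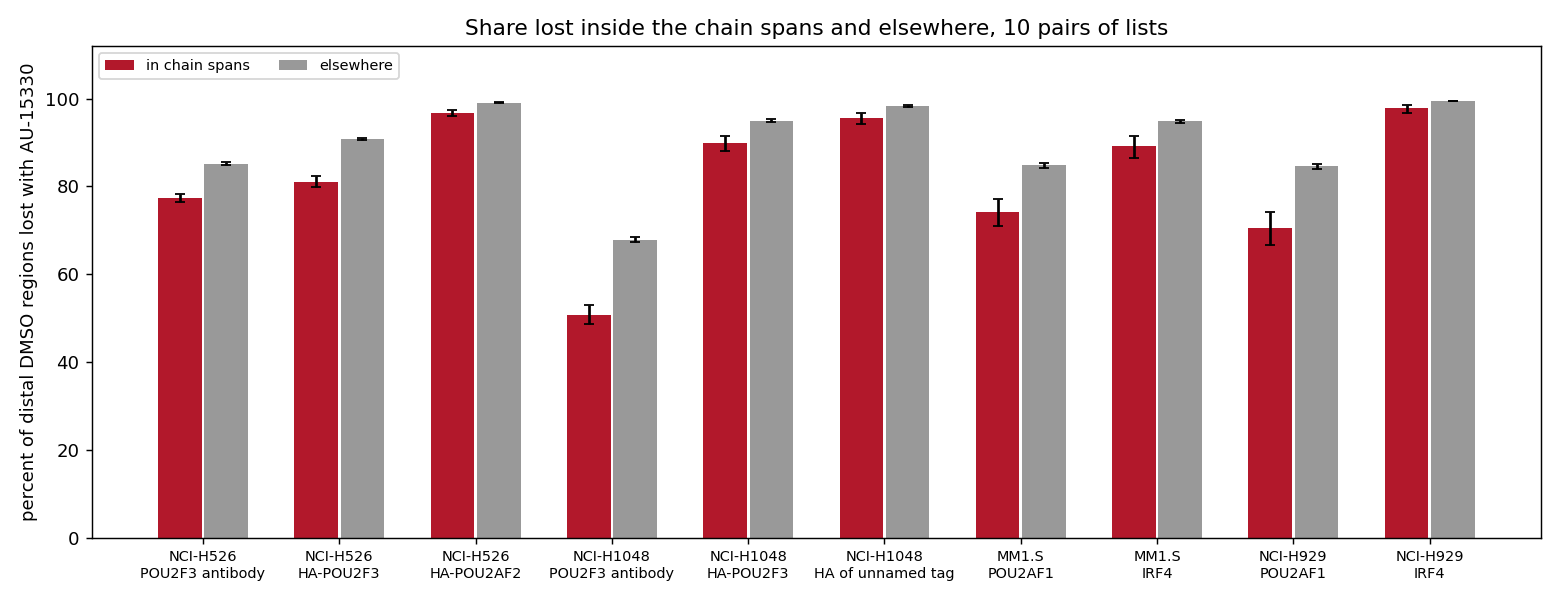
Percent of distal DMSO regions lost with AU-15330 inside the chain spans (red, left bar) and elsewhere (grey, right bar) in the 10 pairs of lists of all 4 lines; error bars are exact 95% intervals and each pair is 1 library per treatment. The lost share is lower inside the spans in all 10 pairs, the myeloma pairs included, by the most for the POU2F3 antibody in NCI-H1048 (50.8% and 67.9%).

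The myeloma factors met chain regions about as often as other distal POU2F3 regions. MM1.S POU2AF1 DMSO regions lay at 5.32% of chain regions and 5.32% of the others (5.32% over all), MM1.S IRF4 at 3.27% and 3.22% (3.23% over all), NCI-H929 POU2AF1 at 4.23% and 4.04% (4.06% over all), and NCI-H929 IRF4 at 6.45% and 6.30% (6.32% over all). Their own DMSO regions were also lost less often inside the spans than elsewhere. For MM1.S POU2AF1 74.1% of 758 regions were lost in the spans (exact 95% interval 70.9 to 77.2), against 84.8% elsewhere and 84.5% over all, and for NCI-H929 POU2AF1 70.5% of 584 (66.7 to 74.2), against 84.6% and 84.1%. For MM1.S IRF4 89.1% of 632 were lost (86.4 to 91.4), against 94.8% elsewhere and 94.6% over all, and for NCI-H929 IRF4 97.8% of 1277 (96.8 to 98.5), against 99.5% and 99.4%. A lower lost share inside these spans was thus seen in the myeloma lines as well. With AU-15330 the chains near CWH43 described next held 10 and 8 of the 62 NCI-H929 IRF4 regions in the spans. They held 8 and 4 of 142 for MM1.S IRF4. For POU2AF1 they held 8 and 5 of 334 in NCI-H929 and 10 and 5 of 397 in MM1.S. Whether the lower share holds in myeloma cells without these chains, or at matched pileup, was not tested. NCI-H929 IRF4 gave 339 chains of its own with DMSO by the same rule, of which 36 overlapped one of the POU2F3 chains. Over all 20 lists, a chain held a region of 9 or 10 lists most often, in 168 and 157 chains, and 5 chains held one of every list.

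Of those 5 chains, 2 lie near CWH43. The chain nearest to CWH43 on chromosome 4, from 49091903 to 49121198 near the centromere, had 8 POU2F3 antibody regions with AU-15330 and 10 with DMSO, and 5 or more regions in each of the 20 lists, myeloma lists included. It lost 3 of 10 members, the lowest share among chains of 8 or more, and 8 of its members carried HA-POU2AF2, the second highest share. At its 7 retained members the level was 6.91 to 35.6 with AU-15330 and 5.70 to 30.7 with DMSO, higher with AU-15330 at every one. A neighbouring chain from 49139588 to 49154630 was the only chain with no region lost. The other 3 are nearest to MMEL1 and PPIAL4F on chromosome 1 and to C1QTNF3-AMACR on chromosome 5. At these the counts were less even, with 5 or more regions in 7 lists at C1QTNF3-AMACR, in 2 at PPIAL4F and in 1 at MMEL1, and in 14 at the neighbouring CWH43 chain. Leaving out the 5 chains gave a lost share in NCI-H526 cells of 77.6% for POU2F3, 81.6% for HA-POU2F3 and 97.3% for HA-POU2AF2. For the NCI-H1048 and myeloma pairs this share was not computed.

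The tags behind the chains were also uneven. In 18 chains with 201 members the local background, solved from the deposited fold together with the p-value, was more than 5 times the median of all regions of the list. Of these, 14 chains with 169 members lie on chromosome 2 between 15093979 and 16799102, a stretch that holds NBAS, DDX1 and MYCN, the last an oncogene often amplified in small cell lung cancer. Their background was 8.20 to 30.3 times the median. A further 3 lie on chromosome 6 between 135138705 and 135398108 beside MYB, another oncogene, with 7.51 to 12.8 times, and 1 lies on chromosome 11 at ARHGAP32 with 5.79 times. In the 6 NCI-H526 lists the median background of these chains was 15.4 to 20.8 times that of the list, and in the NCI-H1048 and myeloma lists with summits it was 0.879 to 1.35 times. Copy number was not measured here.

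The row with the most members belongs to this stretch. The chain over NBAS, a gene of vesicle transport, runs from 15185751 to 15415131 on chromosome 2 over 229 kb, with 12 regions with AU-15330 and 35 with DMSO. HA-POU2F3 had 10 and 26 regions there and HA-POU2AF2 2 and 18, while the POU2F3 antibody in NCI-H1048 had 2 and 4. Of its 35 members 23 were lost and 15 carried HA-POU2AF2, and of the 12 retained 10 carried both HA proteins. A chain nearest to CYRIA, a regulator of actin, had 7 regions with AU-15330 and 24 with DMSO, and one nearest to DDX1, an RNA helicase gene, 3 and 19. The 14 chains lost 61.5% of their members and 49.7% carried HA-POU2AF2. Their fold values were low for their tags, at a median of 1.81 in the NBAS chain, because the background that divides them was high. The recovered pileups stop at 405 tags in the AU-15330 list and at 406 in the DMSO list, with 17 DMSO regions within 5% of that value, so level ratios in these chains are not read. Without the 18 chains of high background, 77.7% of chain regions were lost and 29.7% carried HA-POU2AF2.

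Tuft cell genes were among those under the chains. Of 36 tuft cell genes 8 had a chain over their window, meaning the gene body and 10 kb upstream (22.2%), against 727 of 19970 protein-coding genes (3.64%). The median window was 44.9 kb for the tuft list and 37.5 kb for all genes. The 8 were SOX9, POU2AF2, POU2AF3, ASCL2, TRPM5, ALOX5, IRAG2 and SH2D7. They are not independent, because POU2AF2 and POU2AF3 share 1 chain. ASCL2 and TRPM5 also lie on chromosome 11, which had the highest share of distal regions in chains. The windows of SOX9 and ASCL2 held only 1 chain region each. The other lists had 1 of 21 neuroendocrine genes (STMN2), 0 of 13 T cell genes, 1 of 20 plasma cell genes (POU2AF1), 0 of 12 hepatocyte genes and 1 of 23 mSWI/SNF subunit genes (ARID1B). No chain lay over POU2F3 itself, which had 8 distal regions in its window, or over AVIL, PTGS1, GFI1B, SPIB, GFI1, MYC, MYCN or MYCL.

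SOX9, a transcription factor of epithelial progenitors, had the chain with the most members outside the stretch of high background. It begins inside the gene and runs downstream from 72123844 to 72202774 on chromosome 17, over 78.9 kb, with 6 POU2F3 antibody regions with AU-15330 and 19 with DMSO. HA-POU2F3 had 3 and 9 regions, and HA-POU2AF2 had 0 and 10. The POU2F3 antibody in NCI-H1048 cells gave 6 and 5 regions, HA-POU2F3 4 and 5, and the HA pair of unnamed tag 3 and 5, and all 8 myeloma lists had none. The 6 retained members were those with the 6 highest folds, all 6 carried both HA proteins, and 5 of them had a region in NCI-H1048. Of the 13 lost members 4 carried HA-POU2AF2, 2 HA-POU2F3, and none had a region in NCI-H1048.

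The levels at SOX9 were mostly higher at the retained members, but unlike the folds they overlapped. At the 6 retained members the level was 10.4 to 32.6 with AU-15330 and 19.1 to 56.0 with DMSO, with ratios of 0.526 to 0.678. The 13 lost members had levels of 5.45 to 21.3 with DMSO. The strongest member by fold, from 72152370 to 72153055 with a fold of 12.2, had a level of 32.6 with AU-15330 and 48.1 with DMSO. The member with the highest level, from 72165164 to 72166176, had 32.1 and 56.0. Both regions hold 2 octamer cores within 100 bases of the summit, as the SOX9 contexts printed above show, and 7.35% of all chain regions and 8.44% of other distal regions did so.

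The coactivator genes POU2AF2 and POU2AF3 lie under one chain, from 111196767 to 111310785 on chromosome 11, 114 kb long with 18 members. The span held 7 POU2F3 antibody regions with AU-15330 and 20 with DMSO, 3 and 11 HA-POU2F3 regions, and 2 and 5 HA-POU2AF2 regions. The POU2F3 antibody in NCI-H1048 cells gave 11 and 7 regions, HA-POU2F3 2 and 7, and the unnamed HA tag 2 and 7. Of its members 13 were lost and 5 retained, and only 4 carried HA-POU2AF2, a lower share (22.2%) than at SOX9 (52.6%). The level of the 5 retained members was 9.38 to 33.1 with AU-15330 and 8.68 to 59.3 with DMSO, lower with AU-15330 at 4 of them. The member with the highest level, from 111273251 to 111274205 inside POU2AF2, had 33.1 with AU-15330 and 59.3 with DMSO, and the one from 111303453 to 111303966 inside POU2AF3 had 30.6 and 48.6.

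Beyond the POU2AF2 chain, separate chains lay at POU2AF1, the B cell member of the coactivator family. The following chains were not singled out by the naming rule but by the gene lists, after their values were seen. A chain from 111326559 to 111361907, over the end of POU2AF1, had 5 POU2F3 antibody regions with AU-15330 and 8 with DMSO and lost 5 of 8 members. Another inside POU2AF1, from 111417688 to 111446759, had 4 and 9 regions and lost 5 of 9. In NCI-H1048 cells these spans held 6 and 6, and 2 and 3, POU2F3 antibody regions. MM1.S POU2AF1 had no region in the chain at the gene's end and 2 and 5 in the other.

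ASCL2, a basic helix-loop-helix factor of tuft and intestinal stem cells, had a small chain that kept 3 of 5 members at lower levels. The span, from 2238265 to 2269547 on chromosome 11, held 3 POU2F3 antibody regions with AU-15330 and 5 with DMSO, 1 and 5 HA-POU2F3 regions, and 0 and 3 HA-POU2AF2 regions. The 3 retained members all carried both HA proteins and all had a region in NCI-H1048, and neither lost member carried HA-POU2AF2. The level of the retained members was 8.40 to 33.1 with AU-15330 and 18.1 to 47.1 with DMSO, with ratios of 0.464 to 0.703. The POU2F3 antibody in NCI-H1048 cells gave 5 and 4 regions in the span and HA-POU2F3 0 and 3.

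**Figure D4:**
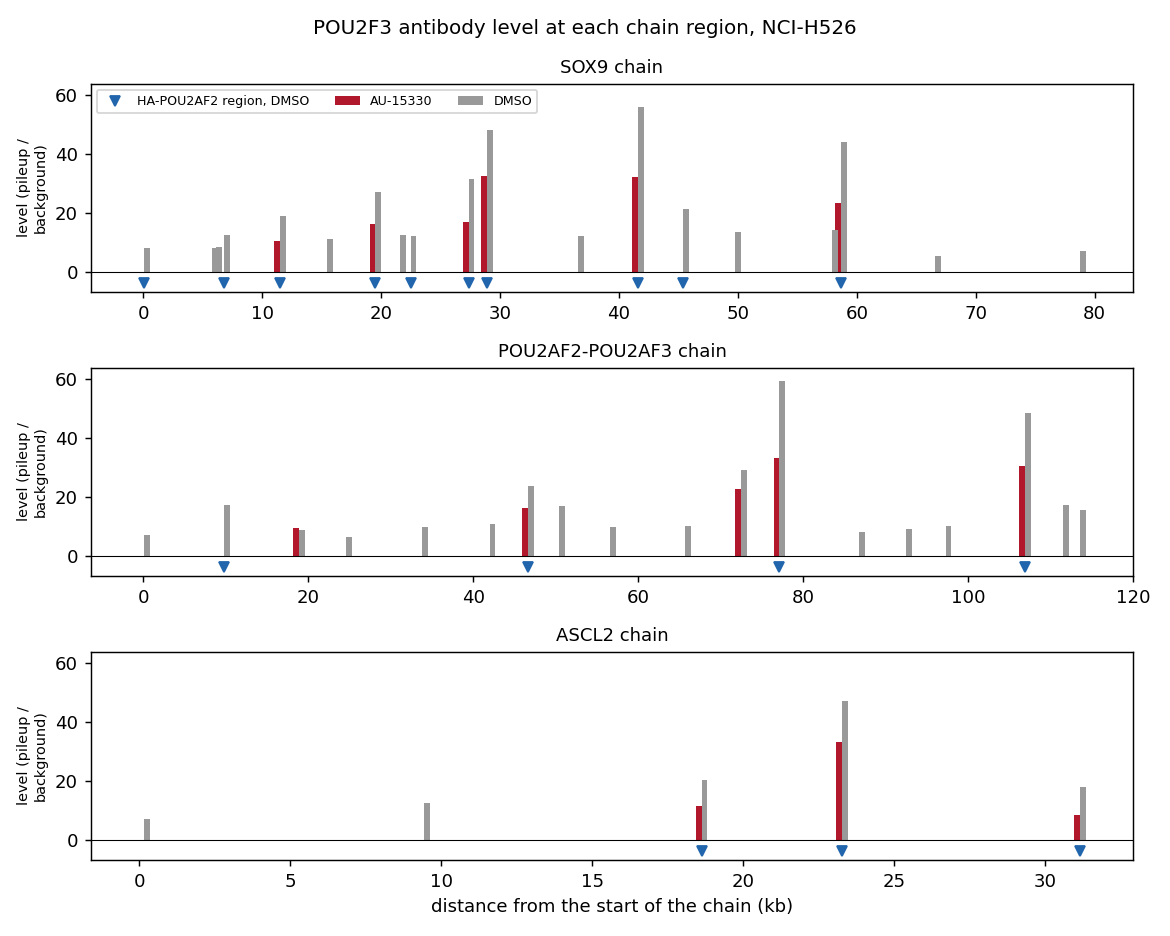
Level of POU2F3 antibody binding (summit pileup over library background) at each member of the SOX9, POU2AF2-POU2AF3 and ASCL2 chains in NCI-H526 cells, with AU-15330 (red, left of each pair) and DMSO (grey), against the distance from the start of the chain in kb; triangles mark members with an HA-POU2AF2 region with DMSO, and a missing red bar means that no AU-15330 region was called. The red bars stand mainly at the tallest grey bars, and all 6 at SOX9 and all 3 at ASCL2 have a triangle.

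The chains over the other tuft cell genes ranged from 5 members at ALOX5 to 12 over SH2D7. TRPM5, the cation channel of taste transduction, had 2 POU2F3 antibody regions with AU-15330 and 6 with DMSO, and HA-POU2AF2 had 0 and 4. At IRAG2, which encodes a regulator of calcium release, the POU2F3 antibody gave 4 and 7 regions, HA-POU2F3 3 and 5, and HA-POU2AF2 1 and 5, and the level of the 3 retained members was 12.3 to 44 with AU-15330 and 18.8 to 49.8 with DMSO. ALOX5, which makes leukotrienes, kept 1 of 5 members, with a level of 17.3 with AU-15330 and 24.8 with DMSO. The chain over SH2D7 and its neighbour TBC1D2B kept 4 of 12. NCI-H1048 had 7 POU2F3 antibody regions with AU-15330 and 3 with DMSO at IRAG2, and 2 and 0 at TRPM5. RUNX1, a transcription factor gene with a long window, had 4 chains with 5, 10, 6 and 5 members, which lost 5, 7, 4 and 4.

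Among the other chains with many members, retention ranged widely. The chain nearest to NCK2, an adaptor protein gene, on chromosome 2 from 105626268 to 105706095 had 7 POU2F3 antibody regions with AU-15330 and 14 with DMSO, while HA-POU2F3 had 0 and 13 and HA-POU2AF2 0 and 7. Its 7 retained members had levels of 8.89 to 16.8 with AU-15330 and 15.4 to 35.9 with DMSO. FAT3, a giant cadherin gene, held 4 and 18 regions in a chain of 115 kb, and over its whole window 51 chain regions in 5 chains, of 72 distal regions. Chains of 14 to 16 members nearest to RAPGEF5, GPR26 and PHGDH lost 11 of 16, 10 of 15 and 12 of 14. The chain nearest to TMEM121 on chromosome 14, from 106768914 to 106858305, kept 1 of 15 members and lies on the immunoglobulin heavy chain side of that gene, whose segments are not protein-coding genes in the annotation and so gave no TSS. The chain nearest to PPIAL4G kept 2 of 14.

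At the extremes of the HA-POU2AF2 load stood chains of 8 or more members. The highest shares were 7 of 8 in an intragenic chain of ZFHX3, 8 of 10 at the chain nearest to CWH43 described above, 7 of 9 at KLHDC7A and at the chain nearest to CHD6, and 6 of 8 inside FYB1, an adaptor gene of immune cells. The FYB1 chain kept 5 of 8 members, all 5 with HA-POU2AF2, at levels of 11.4 to 25.7 with AU-15330 and 26.3 to 49.8 with DMSO. No member carried HA-POU2AF2 in chains at CDKAL1 (11 members), FAM240C, GPR149, BTN3A2 and NPAS3 (10 each), which lost 9, 8, 9, 10 and 9. The chains with most retention otherwise were nearest to MYCN in the stretch of high background, nearest to SC5D and at C2orf73, which lost 3 of 9, 4 of 10 and 3 of 8. Besides BTN3A2, every member was lost in chains nearest to IRS2, an adaptor of insulin signalling (12 members), at PLEKHA7 (11), at PCMTD1 and at CCDC171 (9 each), in which 2, 2, 3 and 1 members carried HA-POU2AF2.

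**Figure D5:**
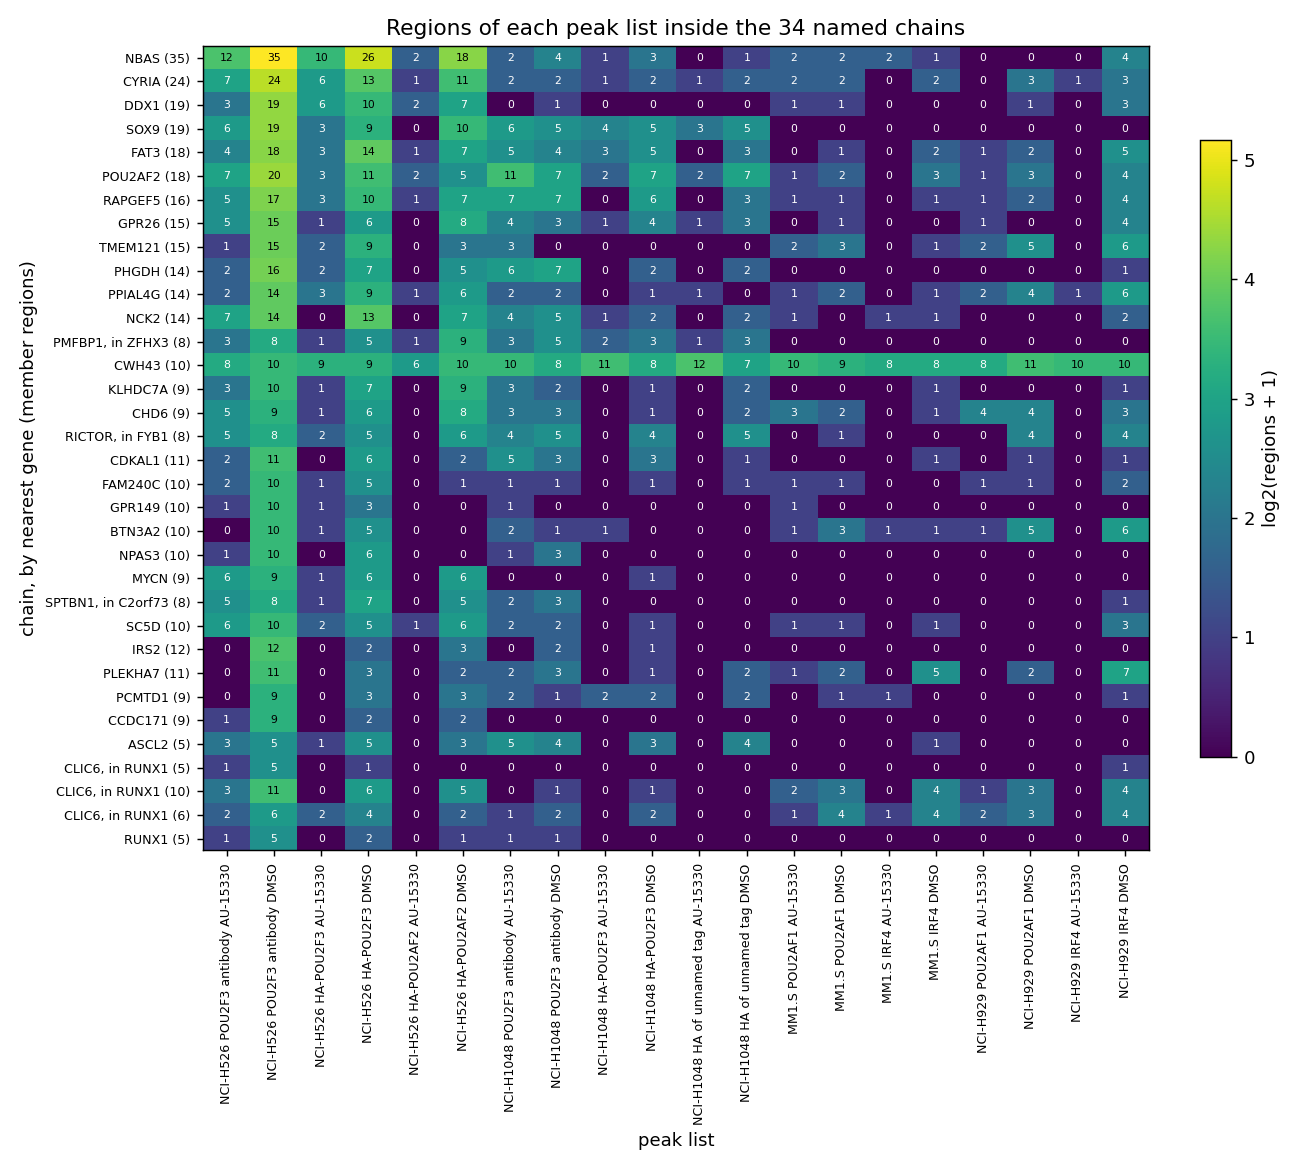
Number of regions of each of the 20 peak lists inside the 34 chains named by the rule, with AU-15330 left of DMSO in every pair; chains run down the page by nearest gene (and the gene they lie in), with the number of members in parentheses. The DMSO column of the NCI-H526 POU2F3 antibody, which chose the chains, has no fewer regions than any other column except at CWH43 and in ZFHX3, and of the chains shown only the one nearest to CWH43 has a region in every list.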

How the data were processed

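Peak lists of 20 ChIP-seq libraries were analysed, 1 library for each line, protein and treatment. The study's methods and the submitters' processing notes name Trimmomatic (0.39) for trimming, BWA for alignment to GRCh38, SAMtools and Picard for filtering and duplicates, and MACS2 at a q-value of 0.05, after which the authors removed blacklisted regions. The deposited fold is the ratio of the summit pileup to the local background, and the deposited −log10 p and −log10 q values and the score are those of the authors' caller. In 18 lists the deposited summit position is an offset counted in bases along the region.

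Regions on chromosomes 1 to 22 and X were used. TSSs and gene windows are from GENCODE 44 (protein-coding transcripts), and distances run from the nearest edge of a region. The whole-number summit pileup and the local background were solved from the fold together with the p-value (largest deviation allowed 0.002), for 99.92% to 100% of regions in those 18 lists. Read numbers were not used here, so depth is known only as background pileup, 1.21 to 4.03 tags per library with summits. Chains, overlaps and recovery were tested on simulated data. Shares have exact Clopper-Pearson 95% intervals (scipy 1.17.1), which cover counting error only. The members, gene lists and comparisons were chosen with earlier results of these data known. Named chains are the 12 with the most regions, the 5 highest and 5 lowest in HA-POU2AF2 share and in lost share among those of 8 or more members, and chains over the windows of POU2F3, POU2AF2, POU2AF3, AVIL, PTGS1, ASCL2, GFI1B, SOX9, SPIB, GFI1, RUNX1 and the MYC family. Octamer contexts were read from the hg38 genome sequence. The housekeeping gene list and a comparison of recurrent contexts are not reported here. Alternatives were other gaps, chain sizes, TSS distances, q-value thresholds, overlap rules and lists of equal number; matching on background and pileup and the removal of chains of very high background or found in every list were chosen after seeing the data.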

Additional observations from a re-analysis of the deposited data

Results flagged for a closer look

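In 12 of the 34 named chains the number of POU2F3 antibody regions was lower with AU-15330 in NCI-H526 cells and higher with AU-15330 in NCI-H1048 cells. Over all chains this held for 410 of 1374 (29.8%). The rule chose chains by the NCI-H526 DMSO list, which favours a lower count with AU-15330 there, and the part of the rule in it was not tested. In the NCI-H526 HA-POU2F3 lists, which the rule did not use, 1200 chains had fewer regions with AU-15330 and 16 had more. With the POU2F3 antibody in NCI-H526 cells 1372 chains had fewer regions with AU-15330 and 0 had more. The chains listed are therefore those with more regions in NCI-H1048 cells, where over all chains 411 had more and 444 fewer, and they show no difference between the lines by themselves. Each line has 1 library per treatment, so the difference between the lines was not tested, and the POU2F3 antibody library of AU-15330-treated NCI-H1048 cells had 1.34 times the background pileup of its DMSO partner. Its list was also longer as a whole, with 51406 regions against 38034 with DMSO. The count in NCI-H1048 was higher by 4 regions at POU2AF2 (11 with AU-15330 and 7 with DMSO), by 3 nearest to TMEM121 (3 and 0), and by 2 at CDKAL1 (5 and 3) and nearest to CWH43 (10 and 8). It was higher by 1 at SOX9 (6 and 5), FAT3 (5 and 4), GPR26 (4 and 3), KLHDC7A (3 and 2), GPR149 (1 and 0), BTN3A2 (2 and 1), PCMTD1 (2 and 1) and ASCL2 (5 and 4). In NCI-H526 cells the same chains had 13 fewer regions at POU2AF2 and SOX9, 14 fewer at TMEM121 and FAT3, 10 fewer at GPR26 and BTN3A2, 9 fewer at CDKAL1, GPR149 and PCMTD1, 7 fewer at KLHDC7A, and 2 fewer at CWH43 and ASCL2.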

How the results depend on the processing

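The number of chains, 1374, was 65 with a gap of 5 kb, 3024 with 20 kb, 66 with at least 10 regions, and 648 with a −log10 q of at least 5 before chaining. TSS rules gave 1227 to 1597. The share lost (77.4%), the HA-POU2AF2 share (30.2%), and the lost shares of HA-POU2AF2 (96.8%) and HA-POU2F3 (81.1%) in the spans were, in this order, 71.9, 31.5, 91.6 and 68.0% with the 5 kb gap, 79.4, 28.5, 97.9 and 84.0% with 20 kb, 72.0, 35.4, 92.2 and 73.4% with at least 10 regions, and 83, 25.9, 97.8 and 85.9% without chains of relative background over 1.5. With q filtered before chaining the first 3 were 70.9, 37.5 and 96.0%. With 50% of the region covered they were 85.0, 22.9, 98.4 and 87.0%, and with summits within 200 bases the first 2 were 78.5 and 28.4%. DMSO lists limited to a −log10 q of 5 or more gave lost shares of 72.0, 95.7 and 76.6% for POU2F3, HA-POU2AF2 and HA-POU2F3, and lists of equal number 34.2, 87.8 and 65.9%. The same limit on the POU2F3 AU-15330 list gave 83.2%, and on the HA-POU2AF2 list an HA-POU2AF2 share of 23.7%. The chain minus other difference in the lost share, -7.84 points, kept its sign in all quintiles of fold. It reversed to 0.485, 1.52, 6.76 and 5.26 points in the upper 4 quintiles of local background and to 2.03 and 0.426 in the upper 2 of pileup. The HA-POU2AF2 difference, 5.27 points, reversed to -1.09, -1.21, -6.42, -9.18 and -6.10 in the quintiles of background and to -0.789, -1.36, -2.93, -6.89 and -7.32 in those of pileup. The cause was not tested. No paired analysis was possible because each condition is 1 library. Depth limits the calls of weak members most in the HA-POU2AF2 list with AU-15330, whose background pileup was 1.21 tags.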

Other observations

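Several genes outside the tuft program held many chain regions in their windows. TCF4, a basic helix-loop-helix factor gene on chromosome 18, had 32 in 5 chains, of 41 distal regions. The neuronal adhesion and scaffold genes DLG2 and OPCML on chromosome 11 had 36 of 137 and 35 of 71, each in 6 chains. AUTS2 had 31 of 68 in 5 chains, and EBF1, a B cell factor gene, 22 of 38 in 4. Of all distal regions 11.3% lay in chains. Long windows hold more regions by their length, and no rate per length was compared.

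The densest chain lay in OXR1 and had 5 members in 5.76 kb, or 8.68 regions per 10 kb, of which 4 were lost. The member with the highest fold of any chain, 20, was in a chain nearest to C1QL2, which lost 1 of 5. The other chains with HA-POU2AF2 at every member, besides the one nearest to CWH43, were nearest to SNX10 and ZCCHC7, and each lost 2 of 5. At the summits of chain regions the RUNX sequence AACCACA was present at 12.2%, against 3.82% of windows 2 kb away, and the E-box CAGCTG at 10.1% against 6.98%. In other distal regions these shares were 13.8% and 9.21%.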
